A study of Mus musculus with 14 samples.

Results

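The IFIT and OAS families of antiviral genes were followed in irradiated mouse heart through 10 members, Ifit1, Ifit2, Ifit3, Ifit3b, Oas1a, Oas1g, Oas2, Oas3, Oasl1 and Oasl2. They were chosen by gene symbol among the 54532 genes of the count table, each symbol matched 1 gene, and all 10 passed the filter on low counts that left 16034 genes to test. The heart tissue came from wild-type C57BL/6J males, aged 8 weeks when the irradiated ones were exposed under pentobarbital anaesthesia. The irradiated animals had received 30 Gy of γ-rays from a 60Co source to the anterior chest, with the rest of the body behind lead. Control_1d (n = 3, unirradiated) and IRR_1d (n = 3, 30 Gy) were sampled after 1 day, Control_6w (n = 4, unirradiated) and IRR_6w (n = 4, 30 Gy) after 6 weeks. Each library was made from the heart of 1 mouse, without separation of cell types, and the field also covered the other tissues of the chest.

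IFIT and OAS genes belong to the interferon-stimulated genes, which are barely transcribed at rest and are switched on when interferons, released by cells that sense foreign or misplaced nucleic acid, reach their receptors and activate STAT and IRF factors. IFIT proteins bind RNA whose cap lacks the marks of the host and keep it from being translated. OAS proteins sense double-stranded RNA and make short oligoadenylates, which act as a signal against viral RNA. OASL proteins share the OAS fold and carry ubiquitin-like domains.

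The 4 IFIT genes lie in 1 cluster on the plus strand of chromosome 19 in mm10, Ifit2 at chr19:34550694-34576419, Ifit3 at chr19:34583531-34588731, Ifit3b at chr19:34607970-34613401 and Ifit1 at chr19:34640871-34650009. The 4 OAS genes lie on the minus strand of chromosome 5, Oas2 at chr5:120730333-120749853, Oas3 at chr5:120753098-120777661, Oas1g at chr5:120876142-120887613 and Oas1a at chr5:120896256-120907521. Oasl2, at chr5:114896936-114912234, and Oasl1, at chr5:114923240-114937915, are neighbours on the plus strand of the same chromosome. All 10 are annotated as protein coding, and each value below sums the reads over a gene's exons.

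Promoters of 9 members were found in the RefSeq set for GRCm38.p6, which covers 250 bases before and 50 after each start, and Oas2 was not matched. The core of the interferon-stimulated response element (ISRE), to which complexes of STAT and IRF factors bind, was searched on both strands as GAAA, any 2 bases and GAAA again, which reads TTTC, any 2 bases and TTTC on the opposite strand. It was found before the start of 6 members, Ifit1, Ifit3, Ifit3b, Oas1a, Oas1g and Oas3. Of all 27025 genes in the promoter set, 3.99% held it. A longer form, in which the core is followed by CT, always overlaps a core. It was found in 5 of those members, all but Oas3, and in 0.303% of the genes in the set. The gamma-activated site TTCNNNGAA was found in Ifit2 and Oas1a, and in 9.55% of the genes in the set. For Ifit2, with 2 windows, and for Oasl1 and Oasl2, no ISRE core of these letters was in the window.

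The 200 bases before the RefSeq start are shown for the 6 promoters with an ISRE core, since they show how alike the members are around the core. They are written from 5′ to 3′ on the strand of the gene, with the cores in capitals, for Ifit1 (chr19:34640689-34640888, plus strand), Ifit3 (chr19:34583329-34583528, plus), Ifit3b (chr19:34607757-34607956, plus), Oas1a (chr5:120907526-120907725, minus), Oas1g (chr5:120887614-120887813, minus) and Oas3 (chr5:120777660-120777859, minus).
Ifit1: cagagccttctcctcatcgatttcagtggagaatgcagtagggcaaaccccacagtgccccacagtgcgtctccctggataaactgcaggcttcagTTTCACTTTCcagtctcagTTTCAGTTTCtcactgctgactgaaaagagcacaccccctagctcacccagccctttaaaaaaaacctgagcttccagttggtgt
Ifit3: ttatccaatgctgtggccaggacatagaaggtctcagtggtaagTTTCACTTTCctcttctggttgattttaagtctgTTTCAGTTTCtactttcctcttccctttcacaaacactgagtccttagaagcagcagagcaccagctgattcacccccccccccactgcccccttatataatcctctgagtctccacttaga
Ifit3b: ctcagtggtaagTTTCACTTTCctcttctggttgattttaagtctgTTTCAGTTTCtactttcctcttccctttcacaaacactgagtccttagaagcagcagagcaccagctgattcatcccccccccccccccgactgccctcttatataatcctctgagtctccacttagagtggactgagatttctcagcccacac
Oas1a: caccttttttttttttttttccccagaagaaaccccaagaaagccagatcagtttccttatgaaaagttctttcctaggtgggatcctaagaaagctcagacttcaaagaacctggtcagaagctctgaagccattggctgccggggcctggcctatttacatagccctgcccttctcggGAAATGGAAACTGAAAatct
Oas1g: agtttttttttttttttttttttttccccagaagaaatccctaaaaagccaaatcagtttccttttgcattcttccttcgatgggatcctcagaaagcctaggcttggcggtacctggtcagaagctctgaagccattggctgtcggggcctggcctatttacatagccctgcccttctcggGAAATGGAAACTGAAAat
Oas3: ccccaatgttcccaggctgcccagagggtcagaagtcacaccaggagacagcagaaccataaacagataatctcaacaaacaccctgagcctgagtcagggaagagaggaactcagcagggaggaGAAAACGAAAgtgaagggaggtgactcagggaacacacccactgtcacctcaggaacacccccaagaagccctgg

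Ifit1, Ifit3 and Ifit3b each carried a pair of cores, TTTCACTTTC followed by TTTCAGTTTC, on the strand opposite to the gene. In Ifit1 they began 104 and 85 bases before the start, in Ifit3 156 and 122 bases, and in Ifit3b 188 and 154 bases. In Oas1a and Oas1g a pair of overlapping cores formed the run GAAATGGAAACTGAAA, which began 20 bases before the start of Oas1a and 18 bases before that of Oas1g. Oas3 carried a single core, GAAAACGAAA, 75 bases before its start. In the best local alignment, the windows of Ifit3 and Ifit3b were 99.2% identical over 260 aligned bases. Those of Oas1a and Oas1g were 88.8% identical over 294. Gaps, of 14 and 9 bases, were not counted. These matches are descriptions of sequence, and binding was not measured.

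The near-identity of these copies extended into the transcripts. Of the windows of 150 bases, the read length, in the annotated transcripts, 18.5% of Ifit3 and 16.0% of Ifit3b were shared between them, as were 32.4% of Oas1a and 24.1% of Oas1g. Reads from those stretches cannot be assigned to 1 copy by sequence, so the split within each pair is uncertain. The ratio of Ifit3 to Ifit3b in CPM (a gene's count relative to the total count of its library) lay between 2.46 and 4.77 over the 14 libraries, and that of Oas1a to Oas1g between 1.84 and 5.78 in 13 of them. The ratio of Oas1a to Oas1g was 22.5 in Control_6w replicate 1, where Oas1g had 4 counts. Ifit1 shared 1.24% of its windows with Ifit1bl2, and the other members shared none.

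Counts per library ran from 13336746 to 16837265. Among genes at 2 to 5 CPM on average, 37.6% were at 0 counts in Control_1d replicate 1, 29.0% in IRR_6w replicate 3 and 13.98% in IRR_6w replicate 4, against at most 7.66% elsewhere, so a count of 0 is a weak measurement in these libraries. Markers of cardiomyocytes, endothelial cells and fibroblasts were above 0 in every library. Summed cardiomyocyte markers ran from 4623 to 33161 CPM, lowest in Control_6w replicate 3. That library also held 2479 CPM of thymus markers, against at most 32.3 elsewhere, and 789 CPM of brown fat markers. IRR_6w replicate 1 held 3318 CPM of atrial markers, 1091 of brown fat and 417 of lung epithelium. IRR_1d replicate 3 held 1217 CPM of atrial and 301 of brown fat markers. Brown fat markers were at most 19.7 CPM in the other 11 libraries. Atrial markers, which belong to the heart itself, were at most 389 CPM outside IRR_6w replicate 1 and IRR_1d replicate 3, the 389 being in Control_1d replicate 2. The 3 libraries high in brown fat markers are referred to below as those with transcripts of other tissues, and the calls of the members are given with and without them.

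In unirradiated hearts the members were at low levels. In FPKM (CPM per kilobase of the deposited gene length, a scale on which genes can be compared), Ifit3 was highest in Control_1d at 9.42 ± 5.26 (SD, n = 3), followed by Ifit2 at 7.48 ± 1.15 and Oas2 at 4.95 ± 2.03. In Control_6w the highest FPKM was that of Ifit1 at 8.37 ± 5.08 (SD, n = 4), followed by Ifit3 at 7.43 ± 0.730 and Ifit2 at 6.99 ± 1.72. Oas3 was lowest in both, at 0.531 ± 0.441 and 0.232 ± 0.301 FPKM. In IRR_6w the FPKM order was Ifit3 at 92.4 ± 45.2, Ifit1 at 58.6 ± 29.0, Ifit2 at 51.8 ± 33.5, Ifit3b at 27.4 ± 17.3, Oas1a at 22.4 ± 14.5, Oas2 at 15.1 ± 8.71, Oasl2 at 13.04 ± 3.61, Oasl1 at 7.67 ± 5.49, Oas3 at 4.89 ± 3.32 and Oas1g at 4.09 ± 2.02. Neighbours in this order overlapped in FPKM in every group, except Oas2 above Oasl1 in IRR_1d and Ifit3b above Oasl1 in Control_6w.

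The main question was how these genes stood 6 weeks after irradiation. Ifit3, Ifit3b and Oas1a rose in IRR_6w, by fold changes of 10.5, 12.1 and 8.17 in edgeR's quasi-likelihood test. A gene counted as called when its p, adjusted over all tested genes by the Benjamini-Hochberg method, was under 0.05 and its fold change was above 2 or below 0.5. In bulk tissue, more cells of a type and more RNA per cell cannot be told apart, nor can fewer cells and less RNA. The count was 3 of 10 members, beside 0.237% of all tested genes called higher. The other 7 had fitted log2 fold changes of 1.35 to 4.25 with adjusted p values of 0.0549 to 0.337. At an unadjusted p all 10 passed, beside 3.69% of all genes, and with DESeq2 9 passed, beside 1.88%, all but Oas2. With limma none of the 10 passed, beside 0.112%. The median log2 fold change of the members was 3.005, against −0.0886 over all tested genes, and all 10 were above 0, as were 43.8% of all genes.

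**Figure D1:**
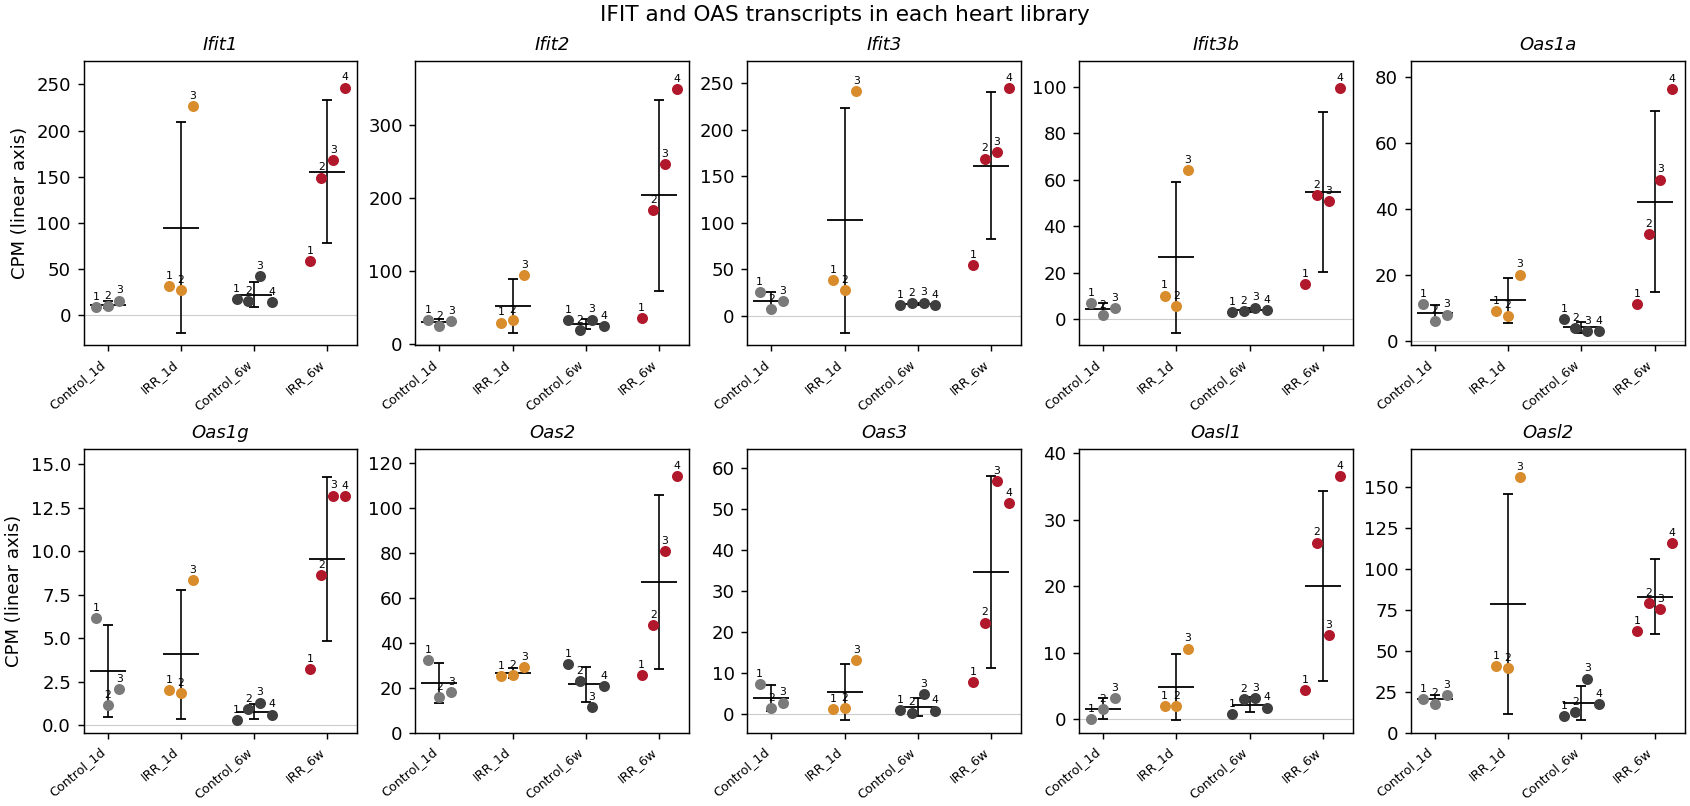
CPM of each member (vertical axis, linear) in each library, with points numbered by replicate, the mean as a horizontal line and SD as error bars. IRR_6w replicates 2, 3 and 4 lie above both control groups in every panel, and in IRR_1d replicate 3 is the highest point in every panel.

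Among the IFIT genes, Ifit1, which binds the altered cap itself, measured 17.1, 15.5, 42.4 and 13.9 CPM in the Control_6w replicates and 58.8, 149, 168 and 246 CPM in the IRR_6w replicates. The groups did not overlap, and Control_6w replicate 3 was well above the other controls. Its log2 fold change was 2.62 (SE 0.615, adjusted p = 0.108 by edgeR).

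Ifit2, which binds AU-rich RNA and has been linked to cell death, measured 32.7, 19.2, 33.3 and 24.6 CPM in Control_6w and 34.9, 183, 247 and 349 CPM in IRR_6w. IRR_6w replicate 1 was barely above the highest control, and the other replicates were far above it. The log2 fold change was 2.65 (SE 0.522, adjusted p = 0.0549 by edgeR).

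Ifit3, the next gene of the cluster after Ifit2, measured 11.9, 13.6, 14.5 and 11.9 CPM in Control_6w and 54.6, 169, 176 and 245 CPM in IRR_6w. The controls were close together, and every irradiated heart lay far above them. The log2 fold change was 3.39 (SE 0.6001, adjusted p = 0.0400 by edgeR). Its copy Ifit3b measured 2.87, 3.48, 4.93 and 4.003 CPM in Control_6w and 15.2, 53.4, 50.7 and 99.5 CPM in IRR_6w, with no overlap and a log2 fold change of 3.59 (SE 0.682, adjusted p = 0.0468 by edgeR).

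Among the OAS genes, Oas1a, an oligoadenylate synthetase, measured 6.63, 4.12, 3.09 and 3.20 CPM in Control_6w and 11.4, 32.5, 48.9 and 76.2 CPM in IRR_6w. The groups did not overlap, and the log2 fold change was 3.03 (SE 0.4996, adjusted p = 0.0250 by edgeR), the smallest adjusted p of any member. Its neighbour Oas1g, also a synthetase, measured 0.294, 0.922, 1.32 and 0.616 CPM in Control_6w, which rest on 4 to 20 counts, and 3.25, 8.63, 13.2 and 13.2 CPM in IRR_6w. There was again no overlap, with a log2 fold change of 3.37 (SE 0.725, adjusted p = 0.0709 by edgeR).

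Oas2, a synthetase with more than 1 OAS unit, was the exception in these values. It measured 30.5, 22.8, 11.4 and 20.8 CPM in Control_6w and 25.5, 47.7, 80.9 and 114 CPM in IRR_6w. IRR_6w replicate 1 fell among the controls, so the groups overlapped, and the log2 fold change was 1.35 (SE 0.401, adjusted p = 0.219 by edgeR). Oas3, the longest of the synthetases, measured 0.810, 0.213, 4.80 and 0.739 CPM in Control_6w and 7.78, 22.2, 56.8 and 51.5 CPM in IRR_6w. The groups did not overlap, although Control_6w replicate 3 stood above the other controls, and the log2 fold change was 4.25 (SE 0.994, adjusted p = 0.105 by edgeR).

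Oasl1, which in mouse cells restrains translation of the Irf7 transcript, measured 0.736, 3.05, 3.16 and 1.72 CPM in Control_6w and 4.395, 26.5, 12.6 and 36.5 CPM in IRR_6w. The groups did not overlap, and the error was the largest of the 10, with a log2 fold change of 2.98 (SE 1.02, adjusted p = 0.337 by edgeR). Oasl2, which keeps the synthetase activity, measured 9.94, 12.7, 33.0 and 17.4 CPM in Control_6w and 62.1, 79.2, 75.4 and 116 CPM in IRR_6w. Every irradiated heart was above every control, with a log2 fold change of 1.99 (SE 0.413, adjusted p = 0.0644 by edgeR).

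In CPM the 4 hearts of IRR_6w lay above all 4 of Control_6w for 9 of the 10 members, beside 6.63% of all tested genes. On the scale of edgeR's TMM factors, which correct library totals for composition, they did so for 8, all but Ifit2 and Oas2, beside 4.08% of all tested genes. Within IRR_6w, replicate 1 was lowest for all 10 members, and replicate 4 was highest for 8 and replicate 3 for 2. Replicates 3 and 4 are also among the libraries with the most undetected genes, at 29.0% and 13.98% as given above. The part of this in their levels was not tested. The median fold of the members over the control mean was 3.04 in replicate 1, 9.29 in replicate 2, 10.2 in replicate 3 and 16.8 in replicate 4.

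The number of calls rested on single libraries. It was 0 when Control_6w replicate 1, 2 or 4 or IRR_6w replicate 2, 3 or 4 was left out, 1 without Control_1d replicate 2 or 3 or Control_6w replicate 3, 2 without IRR_1d replicate 1, 3 without Control_1d replicate 1 or IRR_1d replicate 2, 6 without IRR_1d replicate 3 and 7 without IRR_6w replicate 1. The last 2 counts stand beside 0.319% and 0.602% of the genes tested in those fits, called higher. The counts of 1 to 3 stand beside 0.106% to 0.360%. The counts of 0 stand beside 0.0877% without Control_6w replicate 4, 0.101% without IRR_6w replicate 2 and 0% in the other such fits. Over all genes the number of calls in either direction moved as well, from 41 with all libraries to between 0 and 98, and it was 0 in 4 of the 14 fits. All 10 log2 fold changes were above 0 in each of these 14 fits, and their lowest value was 1.02, for Oas2. Without the 3 libraries with transcripts of other tissues, 9 members rose, all but Oasl1, beside 0.998% of the genes tested in that fit. Their log2 fold changes ran from 1.38 (Oas2) to 5.85 (Oas3). The libraries left out include the lowest of IRR_6w for all 10 members and the highest of Control_6w for 8. The larger count is therefore no separate support. Without the 3 libraries with the most genes at 0 counts, which leaves 2 hearts in IRR_6w, none of the members was called. This stands beside 0% of the genes tested in that fit. The members had log2 fold changes of 0.59 to 3.17 there, with edgeR adjusted p values of 0.320 to 0.779. The libraries left out include the highest of IRR_6w for all 10 members, replicate 4 for 8 and replicate 3 for 2.

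**Figure D2:**
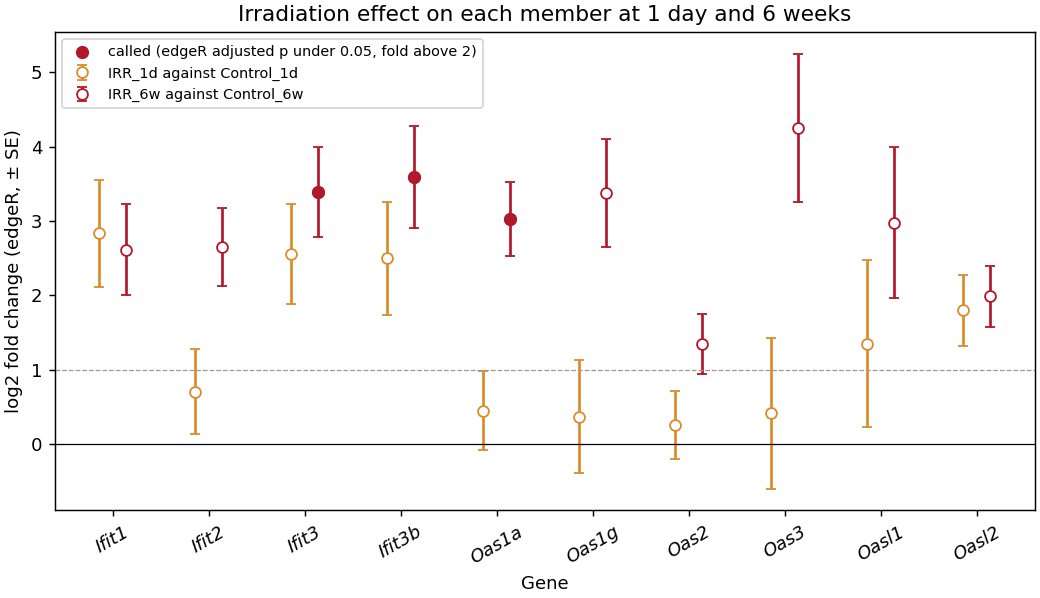
Fitted log2 fold change of each member (vertical axis, edgeR, bars ± SE) at 1 day (orange) and 6 weeks (red), with filled points for called members and a dashed line at the fold limit of 2. Only Ifit3, Ifit3b and Oas1a at 6 weeks are filled, and at 1 day the values run from 0.26 for Oas2 to 2.84 for Ifit1.

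The second comparison asked what was present 1 day after irradiation. None of the 10 members was called by edgeR in IRR_1d, beside 0.0249% of all tested genes, and their fitted log2 fold changes ran from 0.26 to 2.84 with a median of 1.03, against 0.0618 over all genes. All 10 were above 0, as were 55.1% of all genes. At an unadjusted p 4 passed, Ifit1, Ifit3, Ifit3b and Oasl2, beside 1.56% of all genes called higher. DESeq2 called Ifit1 and Ifit3, beside 0.162%, with adjusted p values of 0.0260 and 0.0455, and limma called none, beside 0% of all genes. None was called by edgeR without the 3 libraries with transcripts of other tissues, beside 0.0188% of the genes tested in that fit. The groups did not overlap in CPM for 3 members, Ifit1, Ifit3 and Oasl2, beside 7.28% of all genes, and on the TMM scale for 4, these and Ifit3b, beside 6.52%.

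Those 3 members were above the controls in all irradiated hearts of the first day. Ifit1 measured 8.79, 9.79 and 15.9 CPM in the Control_1d replicates and 31.3, 27.0 and 226 CPM in the IRR_1d replicates (log2 fold change 2.84, SE 0.719, adjusted p = 0.764 by edgeR). Ifit3 measured 25.8, 7.45 and 16.1 CPM in Control_1d and 38.7, 27.5 and 242 CPM in IRR_1d (2.55, SE 0.669, adjusted p = 0.802 by edgeR). Oasl2 measured 20.3, 17.7 and 23.0 CPM in Control_1d and 40.7, 39.3 and 156 CPM in IRR_1d (1.80, SE 0.474, adjusted p = 0.812 by edgeR). In all 3 genes replicate 3 lay several-fold above replicates 1 and 2, which were close to each other.

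For Ifit3b, Ifit2 and Oasl1 the groups overlapped and replicate 3 again stood alone. Ifit3b measured 6.78, 1.75 and 4.70 CPM in Control_1d and 10.1, 5.77 and 64.1 CPM in IRR_1d. Ifit2 measured 32.4, 24.2 and 31.5 CPM in Control_1d and 29.2, 32.5 and 94.2 CPM in IRR_1d. Oasl1 measured 0, 1.53 and 3.16 CPM in Control_1d and 1.91, 1.95 and 10.6 CPM in IRR_1d. The 0 of Oasl1 is in the library with the most genes at 0 counts, and the log2 fold changes were 2.498 (SE 0.754), 0.70 (SE 0.571) and 1.35 (SE 1.12).

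The OAS synthetases were within the range of the controls in IRR_1d replicates 1 and 2, apart from Oas3 in replicate 1. Oas1a measured 11.3, 6.29 and 8.06 CPM in Control_1d and 9.23, 7.78 and 20.2 CPM in IRR_1d. Oas1g measured 6.16, 1.17 and 2.08 CPM in Control_1d and 2.03, 1.88 and 8.33 CPM in IRR_1d. Oas2, the member for which replicate 3 stood out least, measured 32.4, 15.6 and 18.1 CPM in Control_1d and 25.0, 25.7 and 29.2 CPM in IRR_1d. Oas3 measured 7.26, 1.32 and 2.69 CPM in Control_1d and 1.11, 1.39 and 13.1 CPM in IRR_1d. The log2 fold changes of these 4 genes lay between 0.26 and 0.45, with SE of 0.457 to 1.01.

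IRR_1d replicate 3 was highest of its group for all 10 members and above every Control_1d heart for 9, with a median fold over the control mean of 5.13 and a maximum of 19.7 for Ifit1. Replicates 1 and 2 were above every control for 4 members each, with median folds of 1.18 and 1.21. The mean of replicates 1 and 2 over the control mean was 2.54 for Ifit1, 2.02 for Ifit3, 1.96 for Oasl2 and 1.80 for Ifit3b, and lay between 0.33 and 1.23 for the other 6. With replicate 3 left out, no member was called by edgeR, beside 0.00591% of the genes tested in that fit called higher, and the fitted log2 fold changes were lower, 1.33 for Ifit1, 1.11 for Ifit3 and 0.98 for Oasl2, while those of Oas1g and Oas3 were below 0, at −0.52 and −1.41. Atrial and brown fat markers were high in the same library, as given above, and their part in its levels was not tested.

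**Figure D3:**
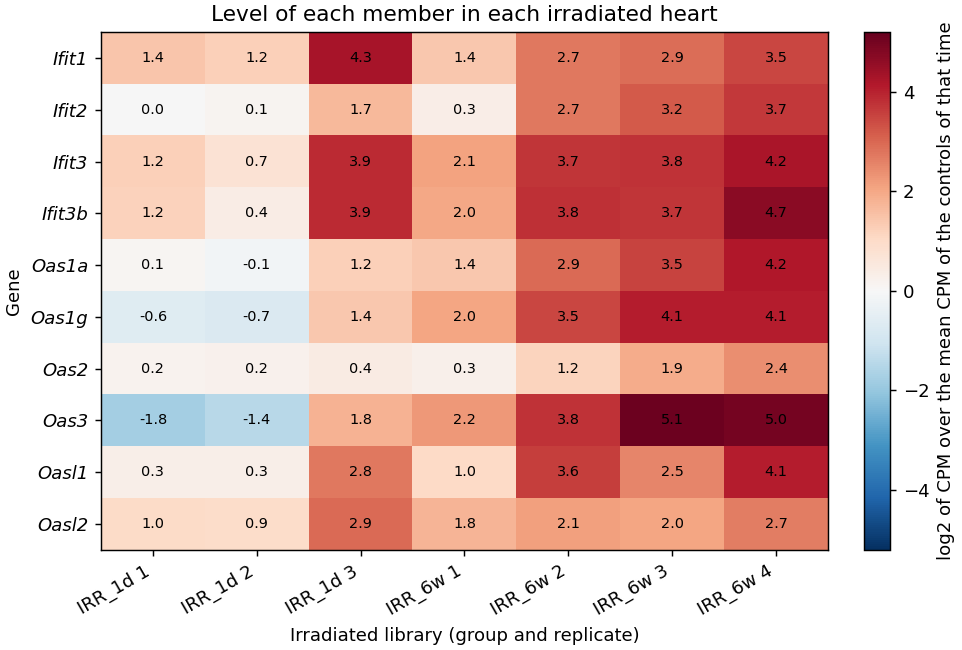
Level of each member (rows) in each irradiated heart (columns), as log2 of its CPM over the mean CPM of the controls of the same time, on a scale from blue (lower) to red (higher). At 1 day replicate 3 is red for most members while replicates 1 and 2 are pale or blue for the OAS synthetases, and at 6 weeks replicate 1 is paler than replicates 2, 3 and 4.

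Levels at the 2 times were compared between the controls, between the irradiated groups, and as a change in the irradiation effect. These comparisons share their samples with those above. Between the controls edgeR called none of the members, beside 0% of all genes, and 2 were lower in Control_6w at an unadjusted p, beside 1.03% of genes called lower. These were Oas1a, with a log2 fold change of −1.11 (SE 0.502, adjusted p = 0.902 by edgeR), and Oas1g, with −2.03 (SE 0.726, adjusted p = 0.902 by edgeR). DESeq2 and limma called none of the members, beside 0.128% and 0% of genes. None was called by edgeR without the 3 libraries with transcripts of other tissues, beside 0.00628% of genes called higher. On the TMM scale Oas1a and Oas1g were lower in every Control_6w heart than in every Control_1d heart, beside 2.53% of all genes, while in CPM their groups overlapped.

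Between IRR_6w and IRR_1d none of the members was called by edgeR, DESeq2 or limma, beside 0.0374, 0.969 and 0.0624% of genes in either direction. By edgeR 3 passed at an unadjusted p, beside 3.06% of genes called higher. They were Ifit2 with a log2 fold change of 1.69 (SE 0.558), Oas1a with 1.47 (SE 0.519) and Oas3 with 2.502 (SE 1.02), with edgeR adjusted p values of 0.605 to 0.803. Oasl2 had the lowest value, −0.18 (SE 0.428). Without the 3 libraries with transcripts of other tissues, IRR_1d replicate 3 among them, edgeR called 6 members higher in IRR_6w, Ifit1, Ifit2, Ifit3, Ifit3b, Oas1a and Oas3, beside 0.565% of genes, with log2 fold changes of 2.17 to 4.67. The libraries left out include the highest of IRR_1d and the lowest of IRR_6w for all 10 members.

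The change in the irradiation effect from 1 day to 6 weeks was called for none of the members, beside 0% of all genes by edgeR, 0.222% by DESeq2 and 0% by limma. At an unadjusted p 4 passed, beside 1.98% of genes called higher, namely Ifit2 with 1.94 (SE 0.759), Oas1a with 2.58 (SE 0.720), Oas1g with 2.999 (SE 1.03) and Oas3 with 3.83 (SE 1.39), on the log2 scale. The edgeR adjusted p values of these 4 were 0.887 to 0.990. For Ifit1 and Oasl2 the values were −0.22 (SE 0.888) and 0.19 (SE 0.609). Without the 3 libraries with transcripts of other tissues 4 were called by edgeR, Ifit2, Ifit3, Oas1a and Oas3, beside 0.176% of genes. As given above, the libraries left out include the highest of IRR_1d and the lowest of IRR_6w for the members.

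The members moved together across hearts. Over the 14 libraries the Pearson correlation of log2 CPM on the TMM scale between pairs of members had a median of 0.82 over 45 pairs, with the highest value, 0.991, for Ifit3 and Ifit3b and the lowest, 0.447, for Oas2 and Oasl2. The median was 0.875 over the 11 libraries left without the 3 with transcripts of other tissues. As deviations from the group means the median was 0.656, with a range of −0.174 to 0.981. The libraries share depth and tissue makeup across all pairs, and Ifit3 and Ifit3b share transcript sequence as given above, so these values are a description. Among the non-members, the 5 genes with a pattern most like the mean of the 10 were Lgals3bp (r = 0.967 over the 14 libraries), Eif2ak2 (0.966), Irf7 (0.966), Rnf213 (0.962) and Irgm1 (0.947).

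The rest of the pathway was read through fixed lists. Of 9 interferon ligands none had enough counts to be tested, and their counts summed to 65 over the 14 libraries. Ifnb1, the interferon β gene, had 2, 36 and 20 counts in IRR_6w replicates 2, 3 and 4 and 0 in the other 11 libraries. These are the 3 hearts in which the members were highest at 6 weeks. IRR_1d replicate 3 had no Ifnb1 count, where a count of 0 allows up to 3 at 95% confidence by counting alone. IRR_6w replicates 3 and 4 are among the 3 libraries with the most genes at 0 counts. The part of this in their Ifnb1 counts was not tested. Ifnk had 7 counts in 2 libraries and the other 7 ligands had none. Of 9 receptors and kinases, such as Ifnar1 and Jak1, none was called at either time by edgeR, DESeq2 or limma, nor at an unadjusted p of edgeR, with log2 fold changes of −0.47 to 0.08 at 1 day and −0.40 to 0.64 at 6 weeks.

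Of 6 transcription factors, 1 rose at 6 weeks by edgeR and none was called at 1 day, where Irf7 passed at an unadjusted p. DESeq2 called 3 at 6 weeks, Irf7, Stat2 and Irf9, and limma called Irf7. With DESeq2 on the 2 groups alone the adjusted p was 0.0587 for Stat2 and 0.0623 for Irf9. Irf7, the factor that amplifies interferon transcription, measured 8.47, 13.4, 10.7 and 9.85 CPM in Control_6w and 66.7, 255, 168 and 232 CPM in IRR_6w. Its groups did not overlap, and the log2 fold change was 3.85 (SE 0.574, adjusted p = 0.0188 by edgeR). At 1 day Irf7 measured 12.9, 8.11 and 24.5 CPM in Control_1d and 23.2, 19.2 and 108 CPM in IRR_1d, again with replicate 3 far above the others (log2 fold change 1.58, SE 0.607). Stat2 and Irf9, which belong to the complex that binds the ISRE, had log2 fold changes of 1.02 (SE 0.276, adjusted p = 0.158 by edgeR) and 1.14 (SE 0.316, adjusted p = 0.170 by edgeR) at 6 weeks.

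Among the genes downstream of the OAS enzymes, Pde12 and Enpp1, whose products degrade oligoadenylates, were called at neither time by edgeR, DESeq2 or limma, nor at an unadjusted p of edgeR. The log2 fold change of Enpp1 was 0.56 (SE 0.437) at 1 day and 0.60 (SE 0.379, adjusted p = 0.709 by edgeR) at 6 weeks, and that of Pde12 at 6 weeks was −0.03 (SE 0.327, adjusted p = 0.988 by edgeR).

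Of 10 sensors of nucleic acid, edgeR called 1 at 6 weeks, DESeq2 called 5 and limma 0. The gene called by edgeR was Eif2ak2, which encodes the kinase PKR and rose from 16.0, 16.7, 26.4 and 18.5 CPM in Control_6w to 45.0, 63.4, 81.0 and 88.7 CPM in IRR_6w (log2 fold change 1.61, SE 0.307, adjusted p = 0.0468 by edgeR). Dhx58, a regulator of RIG-I-like receptors, had a log2 fold change of 2.49 (SE 0.562, adjusted p = 0.0901 by edgeR). Of 10 other interferon-stimulated effectors, 2 rose at 6 weeks by edgeR, while DESeq2 called 6 and limma 1. The 2 were Rsad2, the radical SAM enzyme viperin, which rose by 2.25 (SE 0.388, adjusted p = 0.0335 by edgeR) and Irgm1, an immunity-related GTPase, which rose by 1.82 (SE 0.342, adjusted p = 0.0468 by edgeR) on the log2 scale. Rsad2 was the one whose value at 1 day was below 0, at −0.96 (SE 0.432). Of 4 negative regulators edgeR and limma called 0 at 6 weeks and DESeq2 called 2, Isg15 and Usp18, which also passed at an unadjusted p of edgeR. The log2 fold change was 2.48 (SE 0.627, adjusted p = 0.125 by edgeR) for Isg15, 2.46 (SE 0.663, adjusted p = 0.156 by edgeR) for Usp18, 0.53 (SE 0.418, adjusted p = 0.772 by edgeR) for Socs3 and −0.99 (SE 1.24, adjusted p = 0.865 by edgeR) for Socs1. Socs1 measured 0, 2.34, 30.3 and 2.28 CPM in Control_6w and 4.12, 2.11, 7.42 and 4.93 CPM in IRR_6w, so its control mean rested on replicate 3. At 1 day edgeR, DESeq2 and limma called 0 genes of these 3 lists, and Rtp4, an effector, passed at an unadjusted p of edgeR.

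The calls of Irf7, Eif2ak2, Rsad2 and Irgm1 at 6 weeks were kept by edgeR without the 3 libraries with transcripts of other tissues, with log2 fold changes of 4.06, 1.86, 2.07 and 2.05. In that fit 4 of the 6 transcription factors, 3 sensors, 7 effectors and 1 negative regulator, Usp18, were called higher, beside 0.998% of genes. The sensors were Eif2ak2, Ddx58 and Dhx58. The calls of Irf7, Eif2ak2, Rsad2 and Irgm1 were all lost without the 3 libraries with the most genes at 0 counts. Their log2 fold changes there were 3.78, 1.34, 1.94 and 1.51.

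Ifit1bl1, Ifit1bl2, Oas1b and Oas1c, other genes of the families, were tested, and edgeR and limma called 0 at either time. DESeq2 called 0 at 1 day and 1 at 6 weeks, Ifit1bl1. It measured 2.28, 3.12, 3.22 and 4.68 CPM in Control_6w and 6.15, 8.88, 8.85 and 20.5 CPM in IRR_6w, so the groups did not overlap. Its log2 fold change was 1.46 (SE 0.471, adjusted p = 0.287 by edgeR), and the adjusted p was 0.0408 by DESeq2 on all libraries and 0.0938 by DESeq2 on the 2 groups alone, where the call was lost. Oas1d and Oas1f had no counts in any library, Oas1e had 5 in IRR_6w replicate 1, and Oas1h had at most 23, in IRR_6w replicate 4.

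Markers of several cell types stood apart between the groups at 6 weeks, and those of macrophages and monocytes did so as a sum. The summed level of 8 markers (Adgre1, Cd68, Csf1r, Lyz2, Cd163, Mrc1, Ccr2 and Ly6c2) was 583, 516, 283 and 569 CPM in Control_6w and 1212, 1243, 1396 and 1683 CPM in IRR_6w. Of the 8, edgeR called 1, limma 1 and DESeq2 4. The gene called by edgeR was Ccr2, the receptor that brings monocytes into tissue, with a log2 fold change of 3.49 (SE 0.569, adjusted p = 0.0250 by edgeR), and 7 of 8 were above 0, with Cd163, a marker of resident macrophages, at −0.93 (SE 0.399). At 1 day the sum was 944, 413 and 505 CPM in Control_1d and 665, 513 and 625 CPM in IRR_1d, so the groups overlapped. Of the 8 markers 1 was apart at 1 day, beside 7.28% of all tested genes apart and higher. It was Cd68, a lysosomal protein of macrophages, at 3.74 to 12.2 CPM in Control_1d and 15.1 to 32.0 CPM in IRR_1d. Its log2 fold change of 1.49 (SE 0.477) passed at an unadjusted p of edgeR (adjusted p = 1). Without the 3 libraries with transcripts of other tissues edgeR called 4 of the 8 at 6 weeks, Ccr2, Adgre1, Lyz2 and Mrc1, and without the 3 with the most genes at 0 counts it called 0. One of the 8 markers was at 0 in Control_1d replicate 1, and none elsewhere.

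Some markers of other cells, and the mitochondrial share of the counts, were also apart between the groups at 6 weeks. Col1a1, a collagen gene of fibroblasts, ran from 72.5 to 154 CPM in Control_6w and from 270 to 483 CPM in IRR_6w, with a log2 fold change of 1.38 (SE 0.446, adjusted p = 0.289 by edgeR). Pecam1, an endothelial adhesion gene, ran from 192 to 366 CPM in Control_6w and from 431 to 725 CPM in IRR_6w, with a log2 fold change of 0.62 (SE 0.274, adjusted p = 0.523 by edgeR). These were the fibroblast and endothelial markers, 4 of each, whose groups did not overlap. Of all tested genes 6.63% were higher in this way. Neither marker was called. The summed level of the 4 endothelial markers was 1422, 1292, 535 and 1253 CPM in Control_6w and 1011, 1545, 1756 and 1882 CPM in IRR_6w, so the groups overlapped. That of the 4 fibroblast markers was 1447, 988, 654 and 1162 CPM in Control_6w and 1756, 1317, 1817 and 1568 CPM in IRR_6w, which overlapped as well. All 6 cardiomyocyte markers had log2 fold changes below 0, from −1.10 to −0.05 with a median of −0.74, against −0.0886 over all genes, and none was called by edgeR, DESeq2 or limma or at an unadjusted p. Their summed level was 15534, 33161, 4623 and 27348 CPM in Control_6w and 9031, 26521, 13251 and 16254 CPM in IRR_6w, so the groups overlapped. Mitochondrial genes took 26.9, 25.5, 22.26 and 30.3% of the counts in Control_6w and 13.9, 22.16, 16.7 and 10.4% in IRR_6w, so every irradiated heart was below every control. At 1 day Actc1 and Ryr2, of 6 cardiomyocyte markers, and Kdr, of 4 endothelial markers, were lower in every IRR_1d heart than in every Control_1d heart. The share of all genes lower in this way is not given here, so these 3 are only described. None of the 3 was called by edgeR, DESeq2 or limma or at an unadjusted p. Ms4a1, a B cell marker, ran from 0.658 to 17.8 CPM in Control_1d and from 0 to 0.486 CPM in IRR_1d, passed at an unadjusted p of edgeR and was called lower by DESeq2 (adjusted p = 0.0329 by DESeq2). All 4 markers of the B cell list had log2 fold changes below 0 at 1 day, with a median of −3.92. Of the 4 markers, 2 were lower at an unadjusted p of edgeR, and 0 were called by edgeR. Their sum was 36.2, 1.17 and 4.03 CPM in Control_1d and 0.492, 1.32 and 0.620 CPM in IRR_1d, so the groups overlapped. The control mean rested on replicate 1, the library with the most genes at 0 counts. The part of these differences in the levels of the members was not tested.

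The sums of the 4 IFIT members were 64.6, 51.8, 95.1 and 54.4 CPM in Control_6w, 164, 555, 642 and 940.0 CPM in IRR_6w, 73.8, 43.2 and 68.1 CPM in Control_1d and 109, 92.8 and 626 CPM in IRR_1d. Those of the 6 OAS and OASL members were 48.9, 43.9, 56.8 and 44.5 CPM in Control_6w, 114, 217, 288 and 407 CPM in IRR_6w, 77.5, 43.6 and 57.1 CPM in Control_1d and 80.0, 78.0 and 238 CPM in IRR_1d. In both families the sum was highest in IRR_6w replicate 4 and, on the first day, in IRR_1d replicate 3. The part of macrophage transcripts in the levels of the members was not tested.

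**Figure D4:**
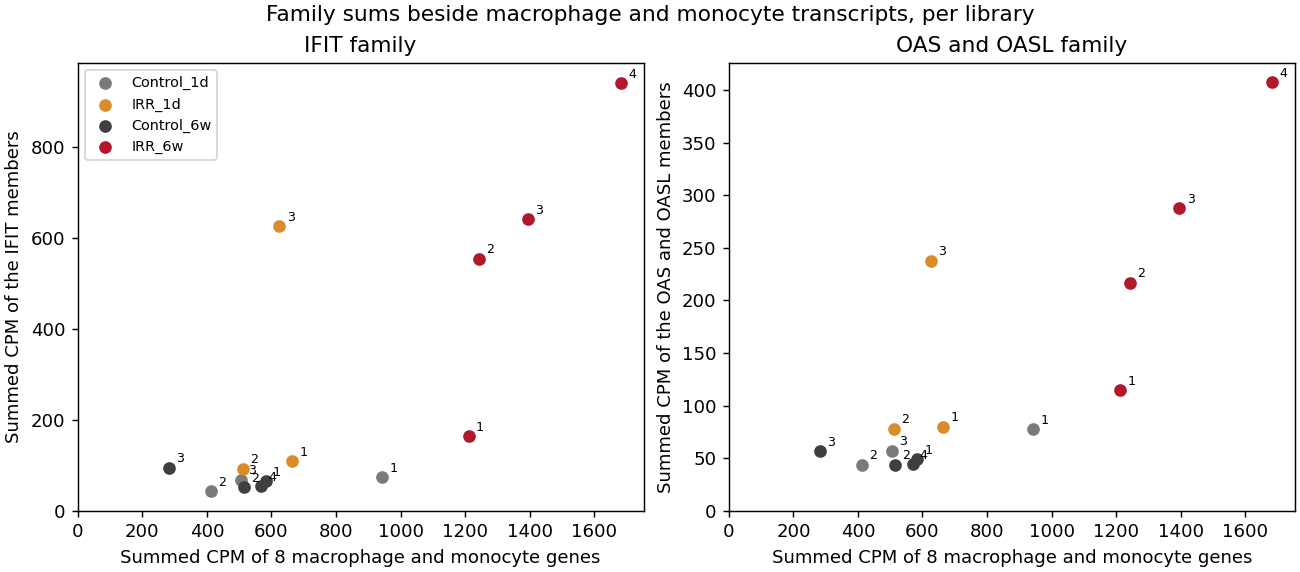
Summed CPM of the IFIT members (left) and of the OAS and OASL members (right) against the summed CPM of 8 macrophage and monocyte genes, 1 point per library numbered by replicate and coloured by group. All 4 IRR_6w points lie to the right of the others, and IRR_1d replicate 3 is high on the vertical axis at 625 CPM of macrophage transcripts.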

How the data were processed

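Heart RNA of 14 mice was sequenced as 150-bp paired-end reads, 1 library per mouse. The authors checked reads with FastQC 0.11.8, trimmed them with Trim Galore 0.6.1, aligned them to mm10 with STAR 2.5.0a and used HTSeq for the gene counts. The counts were deposited as whole numbers, not normalized, beside coordinates and a length for every gene. Strandedness, counting mode, annotation release and the way the lengths were taken are not given in the sources used here. CPM was computed as the count over the library total, and FPKM as CPM per kilobase of the deposited length. All genes were fitted in R 4.3.3 by edgeR 4.0.16 after filterByExpr, with TMM scaling, 1 model of the 4 groups and the quasi-likelihood test, and only the rows of the members and of the listed genes are given. Calls needed an adjusted p (Benjamini-Hochberg, 16034 genes) under 0.05 with a fold change above 2 or below 0.5. TMM factors ran from 0.726 to 1.25. When library totals replaced TMM, the median log2 fold change over genes moved up by 0.233 at 6 weeks and by 0.0758 at 1 day. The shift was 0.161 between the controls, 0.318 between the irradiated groups and 0.154 for the change in effect. Alternatives were DESeq2 1.42.0, limma 3.58.1 with voom, other scalings, no filter, unadjusted p, a replicate block and leaving out libraries, of which the joint omission of libraries was chosen after seeing the data. By counting alone, 0 counts allow up to 3 at 95% confidence. The fit was tested on simulated counts. All 10 members are named, with the other genes of both families, the genes of the pathway lists and the 5 genes with the highest correlation. The members and the lists were chosen with earlier results of these data known. No pair of libraries was a duplicate, the highest correlation of log2 CPM being 0.970. Some genes of the pathway lists are not reported here.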

Additional observations from a re-analysis of the deposited data

Results flagged for a closer look

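Each of the 10 members was examined for a heart far from the rest in Control_6w and in IRR_6w, with 4 hearts each. Such a heart was found in 2 of these 20 sets of values, where chance gives about 1 in 20 for a single set. The sets share the same hearts and the members are correlated, so the sets are not independent. Both cases were in Control_6w replicate 3, the library with thymus transcripts. Ifit1 measured 42.4 CPM there and the next highest control 17.1 CPM. Oas3 measured 4.80 CPM there and the next highest control 0.810 CPM. Control_6w replicate 3 was the highest of its group for 8 of the 10 members.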

How the results depend on the processing

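At 6 weeks 3 members were called by edgeR. The count was 9 with DESeq2 on all 14 libraries and 9 with DESeq2 on the 2 groups alone (1.90% of the genes tested there called higher), 0 with limma, 10 at an unadjusted p, 7 with no filter on low counts (0.343%), 9 without the 3 libraries with transcripts of other tissues and 0 without the 3 with most genes at 0 counts. It ran from 0 to 7 when single libraries were left out. With the replicate block it was 1, Oasl2, beside 0.0811%. The deviations of same-numbered hearts correlated between −0.364 and 0.371. Hearts of different numbers were not compared in this way, so whether the replicate numbers pair the hearts was not settled. At 1 day the count of 0 became 2 with DESeq2 on all libraries or on the 2 groups, beside 0.162% and 0.197% of genes. It became 4 at an unadjusted p, beside 1.56%. At an unadjusted p it became 2 between the controls, 3 between the irradiated groups and 4 for the change in effect, and without the 3 libraries with transcripts of other tissues it became 6 between the irradiated groups and 4 for the change in effect. With single libraries left out, these 4 counts ran from 0 to 0. DESeq2 size factors, library totals and edgeR on the 2 groups alone left 3, 4 and 2 calls at 6 weeks, beside 0.262%, 0.486% and 0.0890%.

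No member had a log2 fold change below 0 at 6 weeks under any alternative. Signs turned elsewhere for members that were not called. At 1 day Oas3 was −0.26 with limma, −0.50 with the replicate block and −1.42 without the libraries with transcripts of other tissues, and Oas1g −0.0088 with the block and −0.53 without those libraries. Between the controls Oas2 was 0.14 without those libraries and 0.068 without the libraries with most genes at 0 counts, where Oasl1 was −0.41. Between the irradiated groups Oasl2 was 0.036 with limma, 0.078 with library totals and 0.76 without the libraries with transcripts of other tissues. For the change in effect Ifit1 was 0.17 with limma, 0.14 with the block and 1.95 without those libraries, and Oasl1 −0.011 with limma. With single libraries left out, at 1 day Oas1g ran from −0.52 to 1.05 and Oas3 from −1.41 to 1.07; between the controls Oas2 from −0.31 to 0.14 and Oasl1 from −0.41 to 1.10; between the irradiated groups Ifit3 from −0.0089 to 1.88 and Oasl2 from −0.50 to 0.64; and for the change in effect Ifit1 from −0.66 to 1.29 and Oasl2 from −0.14 to 1.00. The cause of these shifts was not tested. Members under 50 counts in a library, such as Oas1g and Oas3 in most controls, are known only roughly.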
